A study of Rattus norvegicus with 8 samples.

Results

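The miR-200 family was examined in the kidneys of rats treated with aristolochic acid (AA), a plant toxin that damages the kidney and causes tumors in it. Its members were taken by name from the deposited table of mature miRNAs, with both arms of a hairpin where both were listed under the same spelling. Of the 620 miRNAs in the table, 9 were taken, namely rno-miR-200a, rno-miR-200b, rno-miR-200c, rno-miR-141 and rno-miR-429 (written below without the prefix for rat), and the opposite arms miR-200a*, miR-200b*, miR-200c* and miR-141*. The table holds 3 further rows of these hairpins that are written with a lower-case mir and were not taken, with 1 to 5 raw counts in a rat for mir-429*, 0 to 3 for mir-200b* and 0 to 1 for mir-200a*. None of the 3 was differentially expressed, and their counts lie at or near the floor of 3 counts, the limit that a count of 0 allows. Each of 4 AA-treated and 4 control rats gave 1 small RNA library of its kidney. All 8 rats were male Big Blue rats, a transgenic line on the Fisher 344 background, 6 weeks old at the first dose and 18 weeks old by their labels at the end. The AA-treated rats received the sodium salt of AA by gavage at 10.0 mg/kg in a volume of 4 ml/kg, and the control rats received 0.9% sodium chloride, in both groups 5 times a week. The treatment protocol gives 12 weeks for every rat, whereas the sample descriptions give 12, 13, 14 or 15 weeks, rising with the number of the rat in either group. Between 13412373 and 15616670 reads per rat were counted on miRNAs, and the family took between 88477 and 178225 of them. Normalized counts are counts after division by the median-of-ratios size factor of the library. Values after ± are SDs over the 4 rats of a group unless stated otherwise, and SE is the standard error of a log2 difference.

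A miRNA guides the silencing complex to messenger RNAs that pair with its seed, bases 2 to 8 counted from its 5′ end. The miR-200 family is known as a marker and guardian of the epithelial state. Its members repress Zeb1 and Zeb2, transcription factors that shut off E-cadherin, and these factors in turn repress the genes of the miR-200 family. In the kidney the family is a product of epithelial cells, and loss of it has been tied to epithelial-mesenchymal transition and fibrosis. Neither the targets nor any messenger RNA was measured in these libraries.

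The family has 2 seed groups that differ by a single base, and the mature sequences of miR-200c and miR-141 show this difference. Both are the 3′ arm of their hairpin, as were all family members named without an asterisk in the nomenclature of the table. The sequences are those of RefSeq for the GRCr8 assembly, 5′ to 3′, on the minus strand at chr4:159209969-159209989 for miR-200c-3p and chr4:159209540-159209561 for miR-141-3p, with the seed in capitals.
miR-200c-3p: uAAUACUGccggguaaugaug
miR-141-3p: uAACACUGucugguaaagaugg
Counted from the 5′ end, 17 of the 21 aligned positions were identical, and the differences from miR-200c-3p to miR-141-3p were U4C, C9U, G11U and U17A. Only U4C lies in the seed. The opposite arms carry other seeds. Those of miR-200b and miR-200a share a seed, shown here in capitals, although the remainder of the sequence differs. They lie on the minus strand at chr5:171931548-171931569 and chr5:171930770-171930790.
miR-200b-5p: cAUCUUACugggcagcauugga
miR-200a-5p: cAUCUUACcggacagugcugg

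The 5 hairpins come from 2 loci, and each locus holds both seeds. On chromosome 5 the hairpins of miR-200b, miR-200a and miR-429 lie within 1908 bases on the minus strand, at a position that RefSeq places within the bounds of the protein-coding gene Ttll10. Between miR-200b and miR-200a there are 689 bases, and between miR-200a and miR-429 there are 950. On chromosome 4 the hairpins of miR-200c and miR-141 lie within 509 bases on the minus strand, with 346 bases between them, in the interval between the protein-coding genes Phb2 and Ptpn6. The first 8 bases of miR-200c-3p, UAAUACUG, occurred in the hairpins of miR-200b, miR-429 and miR-200c and in no other of the 419 rat hairpins in the sequence table (0.716% in all). The first 8 bases of miR-141-3p, UAACACUG, occurred in those of miR-200a and miR-141 alone (0.477%). Entries for the mature miR-200a-3p, miR-200b-3p and miR-429 are missing from that table, so that these 3 were put in a seed group by the run of bases in their hairpin. The hairpins are shown with the run in capitals.
miR-200b hairpin, chr5:171931495-171931589: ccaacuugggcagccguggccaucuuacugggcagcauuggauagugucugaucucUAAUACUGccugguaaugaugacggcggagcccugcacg
miR-200a hairpin, chr5:171930717-171930805: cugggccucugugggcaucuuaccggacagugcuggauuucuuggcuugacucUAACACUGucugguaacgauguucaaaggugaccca
miR-429 hairpin, chr5:171929682-171929766: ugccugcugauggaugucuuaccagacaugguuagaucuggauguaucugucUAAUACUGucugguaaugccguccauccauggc
miR-200c hairpin, chr4:159209965-159210033: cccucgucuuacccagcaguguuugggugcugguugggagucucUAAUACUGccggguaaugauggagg
miR-141 hairpin, chr4:159209525-159209618: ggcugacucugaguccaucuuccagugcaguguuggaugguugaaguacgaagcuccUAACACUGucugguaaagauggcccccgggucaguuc

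All 9 members were detected, in an order of abundance that was the same in all 8 rats. From most to least abundant they were miR-200b, miR-200a, miR-429, miR-200c, miR-141, miR-200b*, miR-200a*, miR-141* and miR-200c*. In the control rats miR-200b had 53361 ± 9734 normalized counts and miR-200a had 47573 ± 8524 (n = 4 each), a gap smaller than the spread between rats, although miR-200b was above miR-200a in 8 of 8 rats. miR-429 followed with 17721 ± 3784, miR-200c with 9478 ± 2122 and miR-141 with 6940 ± 1770 (n = 4 each). By mean normalized counts of the control rats these 5 held ranks 26, 28, 42, 60 and 70 of the 620 miRNAs. The 3 members of the chromosome 5 locus were thus each more abundant than the 2 members of the chromosome 4 locus. The opposite arms were far lower, with 1069 ± 136 for miR-200b*, 552 ± 54.9 for miR-200a* and 37.4 ± 9.13 for miR-141* (n = 4 each). miR-200c* had 0, 1, 4 and 0 raw counts in control rats 1 to 4 and 3, 5, 3 and 6 in AA-treated rats 1 to 4, which is close to the floor of 3 counts, so that no fold change is given for it.

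**Figure D1:**
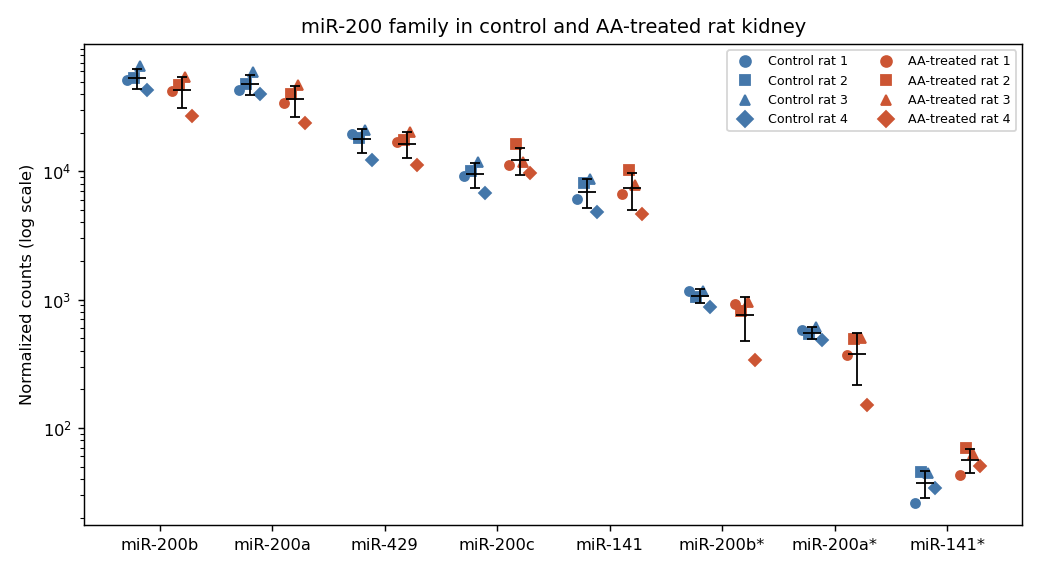
Normalized counts on a log axis of the 8 members with at least 10 counts in every rat, for control (blue) and AA-treated (red) rats, each point 1 rat and the bars the mean ± SD (n = 4). The order of the members is the same in all rats, and the groups overlap for each of the 8.

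AA-treated rats were compared with controls to ask whether a treatment that causes kidney tumors changed the amount of these epithelial miRNAs. None of the 9 members was differentially expressed, that is, none had an adjusted p under 0.05 in the quasi-likelihood test of edgeR (Benjamini-Hochberg adjustment over all 620 miRNAs) together with a ratio of group means over 1.5. Over all miRNAs 9.03% passed these thresholds. No member had an unadjusted p under 0.05, against 23.9% of all miRNAs, and in no member did the 2 groups separate, against 16.3% of all miRNAs. The other tests, DESeq2 and limma-voom, also gave 0 members. Since whole kidney was sequenced, fewer epithelial cells and less of a miRNA per cell cannot be told apart in any of these values.

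miR-200b, the most abundant member, had 51334, 53100, 66284 and 42728 normalized counts in control rats 1 to 4 and 42578, 46935, 54646 and 26886 in AA-treated rats 1 to 4. AA-treated rat 4 was the lowest of all 8 and control rat 3 the highest, and the remaining rats of the groups overlapped. The log2 fold change was -0.32 (SE 0.22, edgeR adjusted p = 0.403), and 2 standard errors to either side reach from -0.77 to 0.13. miR-200a, its neighbour at the locus, had 43094, 47682, 59462 and 40052 normalized counts in controls and 34156, 40225, 47105 and 23669 after AA. The rats stood in the same order as for miR-200b in each group. Its log2 fold change was -0.39 (SE 0.22, edgeR adjusted p = 0.306). miR-429, the remaining member of the chromosome 5 locus, had 19539, 18182, 20872 and 12289 normalized counts in controls and 16755, 17586, 20120 and 11206 after AA. In both groups rat 4 was well below the other 3. Its log2 fold change of -0.11 (SE 0.22, edgeR adjusted p = 0.776) turned to 0.14 when libraries were scaled by total counts and to 0.040 without AA-treated rat 4.

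The values of the chromosome 4 locus leaned the other way, again without passing the test. miR-200c had 9200, 10037, 11895 and 6781 normalized counts in control rats 1 to 4 and 11089, 16316, 11849 and 9616 in AA-treated rats 1 to 4. AA-treated rat 2 was the highest and control rat 4 the lowest, with the others between 9200 and 11895. The log2 fold change of 0.37 (SE 0.22, edgeR adjusted p = 0.333) has an interval of 2 standard errors from -0.08 to 0.81. miR-141 had 6109, 8169, 8627 and 4854 normalized counts in controls and 6673, 10302, 7761 and 4683 after AA. AA-treated rat 4 was below and AA-treated rat 2 above every control rat. Its log2 fold change of 0.08 (SE 0.26, edgeR adjusted p = 0.856) changed sign without AA-treated rat 2, to -0.12, and without control rat 4, to -0.06.

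The log2 fold changes of the 3 opposite arms with enough counts had the signs of the major arms of their hairpins. miR-200b* had 882 to 1173 normalized counts in controls and 338 to 953 after AA, a log2 fold change of -0.50 (SE 0.29, edgeR adjusted p = 0.322). miR-200a* had 484 to 610 and 150 to 506, a log2 fold change of -0.54 (SE 0.32, edgeR adjusted p = 0.324). In both of them the lowest value was that of AA-treated rat 4, and the next AA-treated rat had 822 and 369 normalized counts. miR-141* had 26.0 to 45.0 normalized counts in controls and 42.6 to 69.5 after AA, a log2 fold change of 0.58 (SE 0.30, edgeR adjusted p = 0.273). 

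The median log2 fold change over all 620 miRNAs was 0.05 with the size factors and 0.31 with total counts, where miR-21 took 2.51% to 3.39% of the counts of a control rat and 7.43% to 19.2% of those of an AA-treated rat. With total counts the log2 fold changes were -0.07 for miR-200b, -0.14 for miR-200a, 0.14 for miR-429, 0.63 for miR-200c and 0.35 for miR-141, none of them differentially expressed. Relative to the median of all miRNAs, miR-200b, miR-200a and miR-429 were lower and miR-200c was higher on both scales, and miR-141 was slightly above the median on both. The family as a whole made up 0.87% ± 0.21 of the counts of a control library and 0.88% ± 0.25 of an AA-treated one (n = 4 each). After the size factors it summed to 136733 ± 25136 and 116238 ± 29288 normalized counts (n = 4 each), a difference smaller than the spread between rats.

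**Figure D2:**
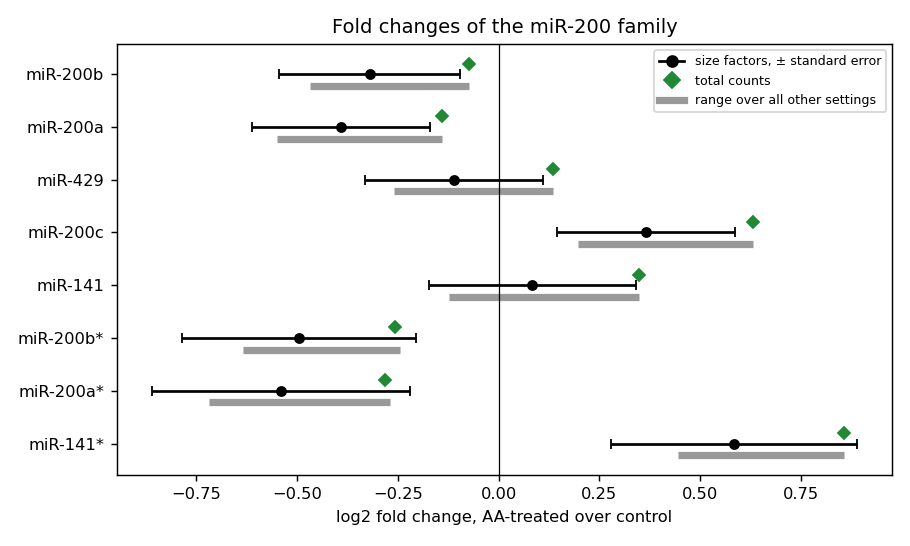
Log2 fold change of AA-treated over control rats for 8 members, with the standard error (black), the value with total counts (green) and the range over all other settings tried (grey). miR-200b, miR-200a, miR-200b* and miR-200a* stay below 0, miR-200c and miR-141* stay above 0, and miR-429 and miR-141 cross 0, none being differentially expressed at any setting.

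Ratios between miRNAs of the same library do not depend on the normalization, and the share of the chromosome 4 locus in the family separated the groups. miR-200c and miR-141 made up 11.8%, 13.3%, 12.3% and 10.9% of the 5 major arms in control rats 1 to 4, and 15.97%, 20.3%, 13.9% and 18.8% in AA-treated rats 1 to 4. The 2 groups did not overlap, and AA-treated rat 3 lay closest to the controls. Such separation was common, at 28.1% of the ratios between any 2 miRNAs with at least 10 counts in every rat. The log2 ratio of the chromosome 4 locus to the chromosome 5 locus was -2.87 ± 0.13 in controls and -2.28 ± 0.29 after AA (n = 4 each), a difference of 0.59. Of its 2 members, miR-200c had ratios to miR-200b, miR-200a and miR-429 that all separated the groups, whereas all 3 ratios of miR-141 to them overlapped. The ratio of miR-141 to miR-200b was 0.114 to 0.154 in controls and 0.142 to 0.219 after AA. The difference of 0.59 in the log2 ratio of the loci became 0.49 to 0.71 on dropping any 1 rat, and 0.48 without both rats numbered 4. The opposite arms, which are other molecules cut from the same hairpins, gave a shift of the same sign. With 0 to 6 raw counts of miR-200c* in a rat, their chromosome 4 side is nearly miR-141* alone, at 25 to 89. The shift of the opposite arms therefore says nothing about miR-200c. miR-200b* and miR-200a* held 97.7% ± 0.60 of the counts on the 4 opposite arms in controls and 94.2% ± 3.03 after AA (n = 4 each), with ranges of 97.2% to 98.5% and 89.8% to 96.6%. The shares were computed over the members and were not tested.

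**Figure D3:**
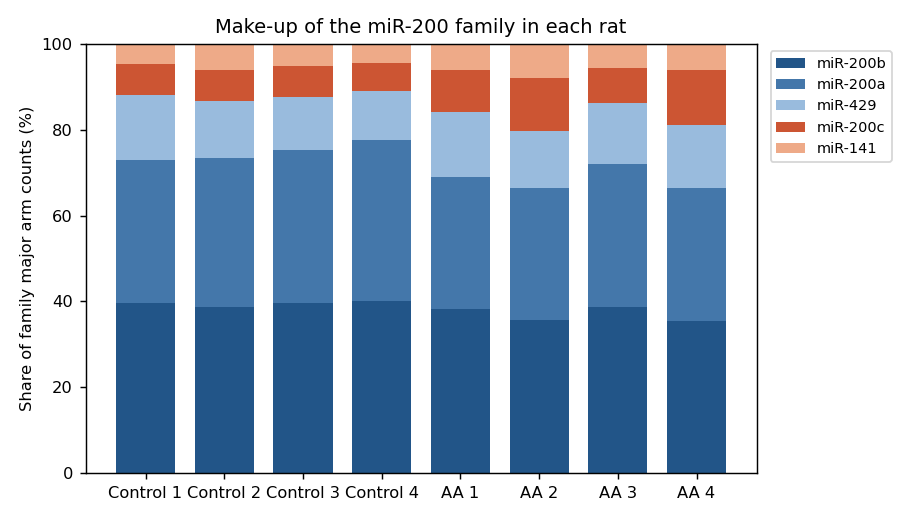
Share of each of the 5 major arms in their summed counts, in percent, with 1 bar for each rat. The 2 members of the chromosome 4 locus (red shades) take 10.9% to 13.3% in controls and 13.9% to 20.3% after AA.

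Among the major arms, miR-200c was the one whose ratios differed most. Its ratio to miR-200b, which bears the same seed, was 0.179, 0.189, 0.179 and 0.159 in control rats 1 to 4 and 0.260, 0.348, 0.217 and 0.358 in AA-treated rats 1 to 4, without overlap. The controls lay close together and the AA-treated rats were spread wider, with rats 2 and 4 the highest. Its ratios to miR-200a and to miR-429 also separated the groups, with means of 0.198 ± 0.0202 and 0.536 ± 0.0443 in controls and of 0.347 ± 0.0743 and 0.759 ± 0.160 after AA (n = 4 each). Within its own locus the ratio of miR-141 to miR-200c was 0.730 ± 0.0622 in controls and 0.594 ± 0.0744 after AA (n = 4 each), lower in each AA-treated rat than in any control. The groups separated in 4 of the 10 ratios between major arms, all 4 of them with miR-200c and so not independent of each other. This share is near the background, since the groups separated in 28.1% of the 46360 ratios between any 2 of the 305 miRNAs with at least 10 counts in every rat.

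The ratio to miR-200b was then tested for all other miRNAs with at least 10 counts in every rat, a test chosen after the values were seen. Of these 304 miRNAs, 5.92% had an adjusted p under 0.05 (limma with Benjamini-Hochberg adjustment), and no member of the family was among them. For miR-200c the log2 difference was 0.72 (SE 0.24, unadjusted p = 0.0138 and adjusted p = 0.102 in limma), where the median over all 304 was 0.34. The log2 differences were 0.41 for miR-141 (SE 0.23, limma adjusted p = 0.287), 0.23 for miR-429 (SE 0.21, limma adjusted p = 0.492) and -0.07 for miR-200a (SE 0.20, limma adjusted p = 0.843). Among the opposite arms, miR-141* had the largest difference of any member, 0.93 (SE 0.28, limma adjusted p = 0.0742), at 25 to 89 raw counts in a rat. Those of miR-200b* and miR-200a* were -0.25 and -0.33 (limma adjusted p = 0.536 and 0.419). Without AA-treated rat 3 the difference for miR-200c was 0.85 with an adjusted p of 0.0494 from limma. With the replicate number as a block the adjusted p from limma was 0.0362, and 81 miRNAs passed the threshold against 18 without the block. Over all settings tried its adjusted p lay between 0.0362 and 0.212.

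Within the chromosome 5 locus the ratio of miR-200a to miR-200b was nearly fixed. It was 0.839, 0.898, 0.897 and 0.937 in control rats 1 to 4 and 0.802, 0.857, 0.862 and 0.880 in AA-treated rats 1 to 4, although the 2 miRNAs bear different seeds and their counts varied more than 2-fold between rats. The SD of the log2 ratio over the 8 rats, a measure of how constant a ratio is, was 0.069 for this pair, the fourth lowest of the 46360 pairs, whose median was 0.619. For the 4 pairs of major arms from the same locus this SD was 0.069 to 0.23, and for the 6 pairs from different loci it was 0.25 to 0.48. The same held when deviations were taken from the mean of each group, with 0.062 to 0.18 within a locus and 0.23 to 0.26 between the loci. The division by seed did not order the ratios in this way. miR-200c and miR-200b share the seed and had an SD of 0.45, whereas miR-141 and miR-200c, which differ in the seed, had 0.22. The share of the miR-200a and miR-141 seed group in the major arms was 40.4% ± 1.69 in controls and 37.8% ± 0.98 after AA (n = 4 each), with overlap between the groups.

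**Figure D4:**
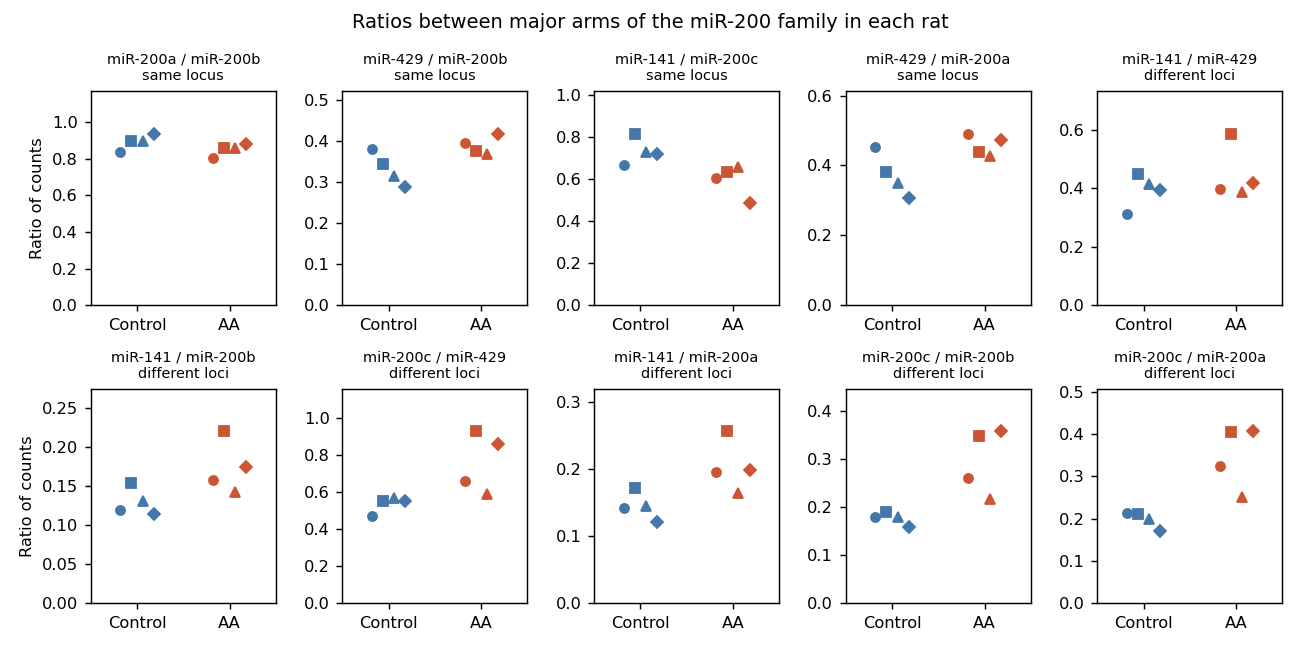
Ratio of raw counts for the 10 pairs of major arms in each control (blue) and AA-treated (red) rat, with rats 1 to 4 as circle, square, triangle and diamond and each axis starting at 0. The ratio of miR-200a to miR-200b stays between 0.802 and 0.937, and the 3 ratios of miR-200c to members of the other locus are higher in every AA-treated rat than in any control rat.

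The choice of arm was skewed in the 4 hairpins for which both arms were taken. For the miR-429 hairpin the table lists only the row mir-429*, with at most 5 counts, as an opposite arm. The opposite arm made up 1.98% ± 0.20 of the reads of the miR-200b hairpin in controls and 1.699% ± 0.360 after AA (n = 4 each). For the miR-200a hairpin the values were 1.16% ± 0.13 and 0.994% ± 0.253, and for the miR-141 hairpin 0.546% ± 0.115 and 0.791% ± 0.196 (n = 4 each). In the miR-200c hairpin at most 0.0508% of the reads of a rat came from the opposite arm. The log2 ratio of the arms was compared between the groups with limma over all 114 hairpins in which both arms had a mean of at least 10 counts, of which 2.63% had an adjusted p under 0.05. None of the 3 hairpins of the family that could be tested was among them. The log2 differences were -0.25 for miR-200b (SE 0.22, limma adjusted p = 0.584), -0.26 for miR-200a (SE 0.24, limma adjusted p = 0.594) and 0.52 for miR-141 (SE 0.24, limma adjusted p = 0.253). The largest departures were those of AA-treated rat 4, with 1.24%, 0.629% and 1.07% from the opposite arm in these 3 hairpins.

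**Figure D5:**
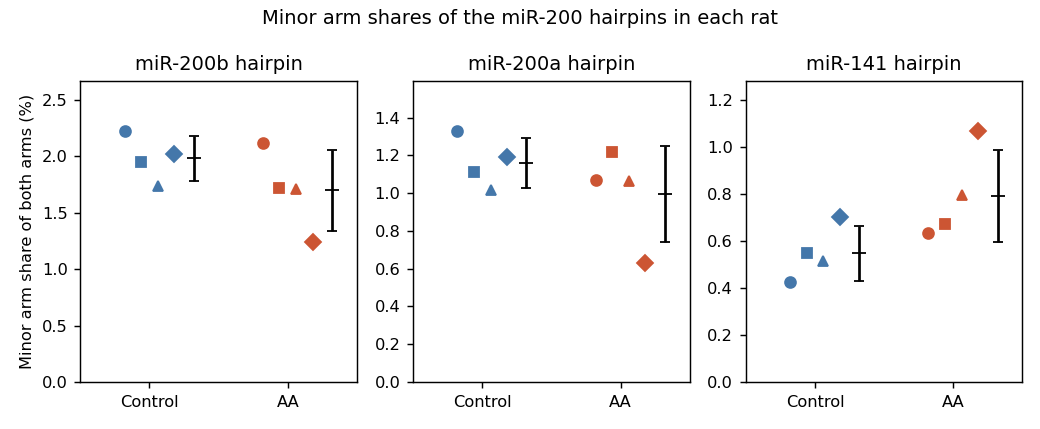
Share of the opposite arm in the reads of the miR-200b, miR-200a and miR-141 hairpins, in percent, for each control (blue) and AA-treated (red) rat, with rats 1 to 4 as circle, square, triangle and diamond and the bars the mean ± SD (n = 4). AA-treated rat 4 is the lowest for miR-200b and miR-200a and the highest for miR-141.

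Outside the family, the miRNAs that kept the most constant ratio to miR-200b over the 8 rats were miR-664, miR-101a and miR-99a, with SDs of the log2 ratio of 0.097, 0.12 and 0.13 among 297 candidates. All 3 also had negative log2 fold changes, of -0.27, -0.35 and -0.31, that did not pass the test (adjusted p = 0.496, 0.379 and 0.369 from edgeR). For miR-200c they were miR-301a, miR-106b and miR-29b, with SDs of 0.174, 0.181 and 0.182. Their log2 fold changes were positive and also did not pass the test, at 0.14, 0.21 and 0.16 (adjusted p = 0.689, 0.527 and 0.636 from edgeR). Within a locus the SD was 0.18 for miR-429 to miR-200b and 0.22 for miR-141 to miR-200c. Each was above the SDs of these 3 outside miRNAs to the same reference, so a ratio this constant was not particular to a shared locus. It was uncommon, however, since 0.93% and 2.34% of the 46360 pairs had a lower SD than these 2 pairs. The outside miRNAs were the lowest of 297 candidates.

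Other miRNAs of epithelial, mesenchymal and blood cells were read from lists beside the family, since whole kidney holds all of these cells. Of 24 listed miRNAs of the kidney tubule, 2 were down-regulated with the size factors (miR-204 by 1.81-fold and miR-194* by 1.84-fold) and none with TMM normalization or total counts, against 3.23% of all 620 miRNAs that were down-regulated. The median log2 fold change of the list was -0.67, against 0.05 over all miRNAs. The list summed to 3145570 to 4303050 normalized counts in a control rat and to 2289880 to 3230030 in an AA-treated rat, and no miRNA of it was at 0 in all 8 rats. The most abundant of them, miR-30a, had 1850150 ± 126462 and 1588730 ± 279001 normalized counts in controls and after AA (n = 4 each). Of 10 other epithelial miRNAs, 1 was down-regulated, namely miR-375, which fell 5.69-fold (adjusted p = 1.28e-04 from edgeR). miR-205 went the other way, from a mean of 331 to 1983 normalized counts (5.99-fold). It did not pass the test (adjusted p = 0.0801 from edgeR), and its groups overlapped. The most abundant, miR-182, had a log2 fold change of 0.08 (adjusted p = 0.872 from edgeR), and the median of the list was 0.02. This list summed to 85043 to 123855 and to 76408 to 137603 normalized counts.

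Of 12 leukocyte miRNAs, 4 were up-regulated, against 5.81% of all 620 miRNAs. miR-142-3p, a miRNA of blood-forming cells, rose 2.67-fold, miR-146b rose 4.69-fold and miR-223, a miRNA of myeloid cells, rose 1.94-fold (adjusted p = 7.92e-04, 2.85e-04 and 0.0231 from edgeR). The fourth was mir-146b*, at 1.09 ± 1.47 and 10.7 ± 8.49 normalized counts (n = 4 each). The list summed to 37051 to 49348 normalized counts in a control rat and to 61093 to 111516 in an AA-treated rat, with AA-treated rat 4 the highest and AA-treated rat 3 the lowest of the latter. The same 2 rats had the lowest and the highest normalized count of miR-200b among the AA-treated rats. The control rats did not stand in such an order. Control rat 4 was the lowest of them in both, with 37051 normalized counts for the list and 42728 for miR-200b. Among the AA-treated rats, the list of other epithelial miRNAs was also highest in rat 4, at 137603 normalized counts. The kidney tubule list was lowest in AA-treated rat 2, at 2289880, and highest in AA-treated rat 3, at 3230030. Of 13 fibrosis-associated miRNAs, miR-21 and miR-21* were up-regulated, by 3.83-fold and 2.999-fold, and miR-382* was down-regulated by 3.04-fold. Of 9 miRNAs of fibroblasts and smooth muscle, 3 of the endothelium and 4 of red cells, none was called with the size factors, and their lists summed to 2559920 to 3550830, 124118 to 164008 and 11079 to 16985 normalized counts in controls and to 1973980 to 2677450, 88893 to 137277 and 3402 to 11440 after AA. The median log2 fold changes of these 3 lists were 0.22, -0.23 and -0.63. Most of the fibroblast and smooth muscle sum was miR-143, with means of 2935740 normalized counts in controls and 2206880 after AA. Its log2 fold change was -0.41 (adjusted p = 0.200 from edgeR), so the sum and the median of that list differ in direction. When libraries were scaled by total counts, 2 miRNAs of fibroblasts and smooth muscle, 1 of the other epithelial miRNAs and 6 of the leukocyte miRNAs were up-regulated. At that setting 69 of all 620 miRNAs were called in either direction, against 56 with the size factors. The part of these cell types in the values of the miR-200 family was not tested.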

How the data were processed

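Base calls were made with CASAVA 1.7 per the submitters' processing notes. The authors masked adaptors, removed contaminated reads and assigned the rest to rat miRNAs of miRBase release 16 with miRanalyzer at default settings. The values deposited by the authors are raw read counts per mature miRNA and rat; how reads matching several miRNAs were counted, and the genome build, are not given in the sources used here. Rats are the replicates.

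All 620 miRNAs were fitted with edgeR 4.0.16 in R 4.3.3 (quasi-likelihood test, median-of-ratios size factors, no covariate, 8 rats). Arm ratios and ratios to miR-200b were fitted with limma 3.58.1 on log2 values with a pseudocount of 0.5. Alternatives were TMM, total counts, DESeq2 1.42.0, limma-voom, filters, other pseudocounts, a replicate block and leaving out rats. The tests were tried on simulated counts with larger changes than those of the members. Each miRNA was drawn independently there, so this does not show how the tests perform on small changes in these rats. Intervals and the floor of 3 counts cover counting error or spread between these rats only, since PCR reads are not independent molecules. All listed members were named. Other miRNAs were named by list, as called or most abundant, or as the 3 with the most constant ratio. miR-205 was named as well, for a fold change opposite to that of miR-375. Members and lists were chosen with earlier results of these data known. Sequences are from RefSeq (GRCr8), where all 5 hairpins matched. Figures used matplotlib 3.10.9 in Python 3.11.15.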

Additional observations from a re-analysis of the deposited data

Results flagged for a closer look

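In AA-treated rat 2 the ratio of miR-141 to miR-429 was 0.586, where the remaining AA-treated rats had 0.386 to 0.418, so that this rat stood far from the rest of its group. The same rat had the highest normalized counts of miR-141 and miR-200c. It was the 1 group flagged of 52 groups of 4 rats examined, and chance alone flags about 1 in 20.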

How the results depend on the processing

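Of the members, 8 were not differentially expressed under any of 15 other settings. miR-200c* had too few counts for the filter, had no adjusted p in DESeq2 and was not differentially expressed under the other 13. The number of miRNAs called over the whole table was 40 to 62 with each rat left out and 42 to 74 under the others, against 56. Among the members, miR-429 changed sign to 0.14 with total counts, and with each rat left out its log2 fold change was -0.26 to 0.040 (0.040 without AA-treated rat 4). That of miR-141 was -0.12 to 0.25 (-0.12 without AA-treated rat 2, -0.061 without control rat 4). The number of hairpins with a changed arm ratio was 1 with a minimum of 100 counts per arm, 1 with the replicate block and 0 to 3 with each rat left out, against 3. It was 0 without control rat 2, 3 or 4 or AA-treated rat 2 or 3. The number of miRNAs whose ratio to miR-200b changed was 30 with miR-200a as the reference, 81 with the replicate block and 10 to 35 with each rat left out, against 18. It was 10 without control rat 2 or AA-treated rat 1, 11 without control rat 3 and 35 without AA-treated rat 3. The causes were not tested. With the replicate block, miR-200c relative to miR-200b passed the threshold (adjusted p = 0.0362 from limma), and 74 miRNAs were called in edgeR. Same-numbered rats were separate animals, and the weeks that rise with the number in the sample descriptions stand against a single duration in the protocol and 1 age for all rats. The deviations of same-numbered rats from their group means over 241 miRNAs correlated by -0.0091, 0.189, 0.152 and 0.447 for rats 1 to 4. Control rats 2, 3 and 4 correlated best with the AA-treated rat of the same number, and control rat 1 with AA-treated rat 2 (0.191). These correlations do not decide whether the numbers pair the rats. The main fits did not use the numbers, and the fits with the block stand as an alternative. Depth limits miR-200c* most, which had at most 6 counts in a rat. It also limits miR-141*, at 25 to 89 raw counts, and the arm ratio of miR-141 dropped out at the minimum of 100 counts per arm.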

Other observations

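In both groups the rat numbered 4 had the lowest normalized count of 7 of the 9 members, all but miR-141* and miR-200c*. Of the 305 miRNAs with at least 10 counts in every rat, 22.3% were lowest and 21.6% highest in rat 4 of both groups. The family took 0.644% of the counts of control rat 4 and 0.602% of those of AA-treated rat 4, against 0.748% to 1.15% in the other 6 rats.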
